A study of Mus musculus with 2 samples.

Results

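The microfibril and elastic fibre genes followed here are the fibrillins Fbn1 and Fbn2, elastin (Eln), the fibulins Fbln1, Fbln2, Fbln5 and Fbln7, and the microfibril-associated genes Mfap2, Mfap4 and Mfap5. They were chosen by symbol, as the probe sets annotated with exactly 1 symbol on this list of 10 genes. This gave 17 probe sets of 9 genes, of 34945 probe sets of 18193 genes on the array. Fbn1 was not analysed here. Expression was measured in cells of mouse embryos carrying the Col2a1-Venus transgene on a C57Bl/6 background. Venus, a modified green fluorescent protein, marks cells by the activity of the Col2a1 gene of the main cartilage collagen. Cell sorting split the transgenic cells into those with Venus fluorescence (Venus-positive) and those without (Venus-negative), and 1 Affymetrix array was hybridised with the RNA of each fraction. The sources used here do not give the age or number of the embryos.

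Fibrillins are long, cysteine-rich glycoproteins that assemble into microfibrils, the thin fibrils of connective tissue. Microfibrils form the scaffold on which elastin is deposited, with fibulins and lysyl oxidases aiding the assembly and cross-linking of the elastic fibre. They also occur without elastin, and in the matrix they bind latent TGF-beta complexes and bone morphogenetic proteins. Microfibrils are known from both cartilage and the perichondrium around it.

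Each fraction was measured once, so no value has a replicate error, no test between the fractions was possible, and each difference describes these 2 arrays. Probe sets with a signal under 22.5, the median of all signals on both arrays, were treated as too dim to order, and that value served as a floor before log2 ratios were taken. A gene counted as measured where either array brought a probe set of it up to the floor, and its brightest probe set stood for it. The Venus-positive array was dimmer, and over 11789 measured genes the median log2 ratio (Venus-positive divided by Venus-negative signal) was -0.33. Ratios "relative to the median gene" have this shift removed. The sort was checked on cartilage genes. Col2a1, whose activity was used to sort the cells, read 8443 in Venus-positive against 606 in Venus-negative cells, Acan (aggrecan) had 3461 in Venus-positive against 62.6 in Venus-negative cells. Matn1 (matrilin 1) had 4478 in Venus-positive against 56.3 in Venus-negative cells, and the cartilage transcription factor gene Sox9 had 1601 in Venus-positive against 338 in Venus-negative cells. All 10 chondrocyte markers were at least 2-fold higher in Venus-positive cells, beside 2.79% of all measured genes. Among them Col2a1 is no independent check. Matn3 (matrilin 3), below the floor in Venus-negative cells at 20.3, could only come out higher.

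The members did not move as a block. Fbln7 was far higher in Venus-positive cells, Fbln2 was moderately higher, the 2 fractions were close for Fbn2, and the remaining 6 measured members were lower. Of those above the floor on both arrays Fbln5 was the lowest, while the ratio of Mfap5 is only a least size and has no place in the order. Of 9 measured members, 1 passed 2-fold upward and 3 passed it downward, beside 2.79% and 11.6% of all measured genes. Their median log2 ratio was -0.85, against -0.33 over all measured genes. Relative to the median gene, 2 passed 2-fold upward and 1 downward, beside backgrounds of 5.06% and 6.45%, with a median of -0.52. Fbln7 and Mfap5 passed the filter on dim signals through 1 array only and so had to differ. Of the other 7 members, above the floor on both arrays, none passed 2-fold upward and 3 passed it downward. The background among such genes was 2.53% and 9.84%. Relative to the median gene, 1 of these 7 passed upward and 1 downward, beside 4.76% and 5.04%. Probe set by probe set, 12 of the 17 were measured, of which 1 passed 2-fold upward and 4 downward, beside 2.44% and 10.2% of all measured probe sets. With bulk RNA of a sorted fraction, fewer cells that express a gene and less RNA per cell cannot be told apart.

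**Figure D1:**
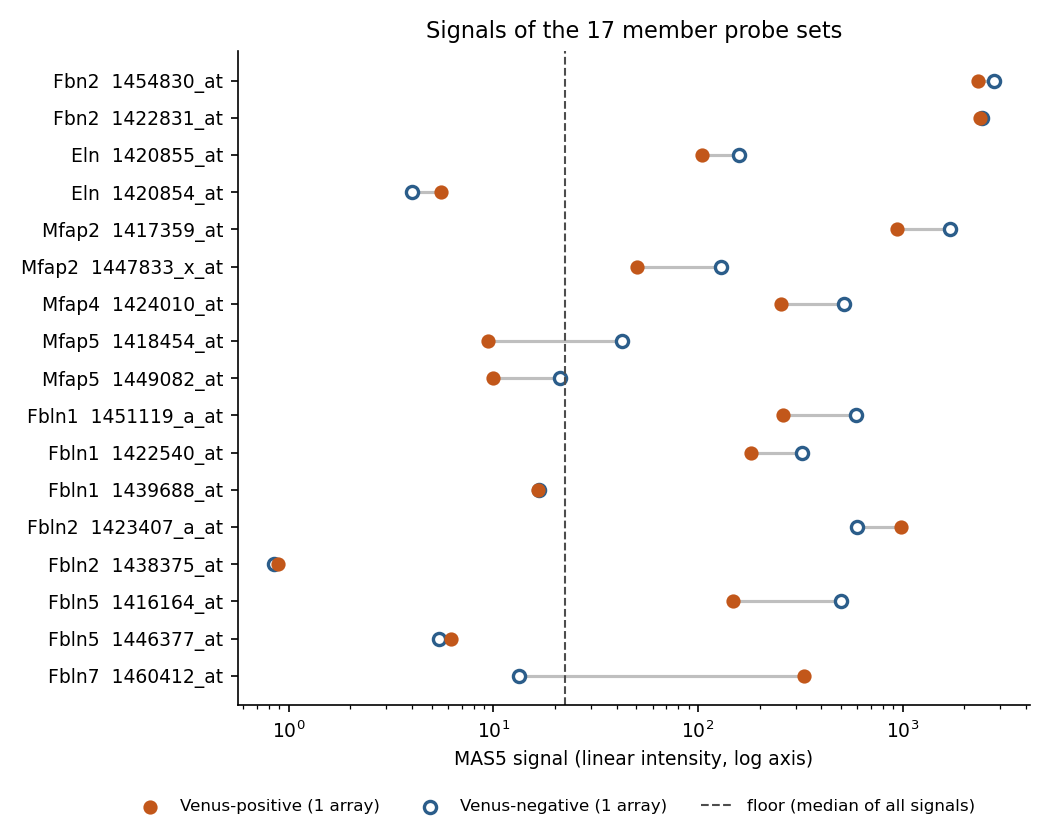
Signal of each of the 17 member probe sets (rows, by gene and probe set name) on a log axis of linear MAS5 signal, with filled points for the Venus-positive and open points for the Venus-negative array and a dashed line at the floor of 22.5. Fbln7 is the only gene whose Venus-positive point lies far to the right of its Venus-negative point, while both points of Fbn2 nearly coincide, and 5 probe sets lie below the floor on both arrays.

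Fbn2 encodes fibrillin 2, a backbone protein of microfibrils that is made mainly during development. Its 2 probe sets gave signals of 2337 and 2377 in Venus-positive cells, against 2789.5 and 2445 in Venus-negative cells. The log2 ratios were -0.26 and -0.04 on the deposited scale. Relative to the median gene they were 0.08 and 0.29, so the sign of this small difference turns with the scale. Among 10298 genes above the floor on both arrays, 56.5% had a lower log2 ratio than Fbn2, which places it near the middle.

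Eln encodes elastin, the rubber-like core of the elastic fibre. Its brighter probe set read 105 on the Venus-positive array and 158 on the Venus-negative array, a log2 ratio of -0.59, or -0.26 relative to the median gene. The second Eln probe set stayed below the floor on both arrays, at 5.56 in Venus-positive against 4.01 in Venus-negative cells, and carries no order. The size of this difference is below 2-fold on either scale.

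Mfap2 and Mfap5 encode MAGP-1 and MAGP-2, small glycoproteins bound to fibrillin microfibrils. The brighter Mfap2 probe set read 942 on the Venus-positive array and 1698 on the Venus-negative array, 1.80-fold lower. The dimmer one had 50.6 in Venus-positive against 130 in Venus-negative cells, 2.58-fold lower, but its name ends in _x_at, which marks probes that can match other transcripts. Both Mfap2 probe sets were thus lower in Venus-positive cells, on either side of 2-fold, and relative to the median gene their log2 ratios were -0.52 and -1.03.

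Mfap5 was dim. Its brighter probe set had a signal of 9.39 in Venus-positive cells, below the floor, and of 42.7 in Venus-negative cells, at least 1.90-fold lower. The second probe set had 9.92 in Venus-positive against 21.1 in Venus-negative cells, below the floor on both arrays. Both had the lower signal in Venus-positive cells, but only the bound of the first can be used.

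Mfap4 encodes a fibrinogen-related glycoprotein that binds fibrillin and elastin. Its 1 probe set read 256 on the Venus-positive array and 516 on the Venus-negative array, 2.02-fold lower, with a log2 ratio of -1.01. Relative to the median gene the log2 ratio was -0.68, so Mfap4 passes the 2-fold size only on the deposited scale. Of genes above the floor on both arrays, 9.52% had a lower ratio.

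Fibulins are secreted glycoproteins that link elastic fibres, microfibrils, basement membranes and proteoglycans, and these 4 genes had ratios in both directions. Fbln7, first described in mouse as a cell adhesion protein of developing teeth, read 328 on the Venus-positive array and 13.4 on the Venus-negative array. The Venus-negative signal was below the floor, so Fbln7 was at least 14.6-fold higher in Venus-positive cells, a log2 ratio of at least 3.87. This rests on 1 probe set.

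Fbln2, whose protein binds fibronectin, basement membrane proteins and the lectican proteoglycans aggrecan and versican, was the only other member with a higher signal in Venus-positive cells on the deposited scale. Its usable probe set read 984 on the Venus-positive array and 599 on the Venus-negative array, 1.64-fold higher, while the second was near 0 on both arrays, at 0.886 in Venus-positive against 0.845 in Venus-negative cells. Relative to the median gene Fbln2 was 2.07-fold higher. Its ratio exceeded that of 95.6% of the genes above the floor on both arrays.

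Fbln1, which also encodes a binding partner of fibronectin and of lecticans, was lower. One of its probe sets read 260 on the Venus-positive array and 594 on the Venus-negative array, 2.28-fold lower, and another had 181 in Venus-positive against 324 in Venus-negative cells, 1.79-fold lower. The third was below the floor at 16.5 in Venus-positive against 16.6 in Venus-negative cells. Relative to the median gene the log2 ratios of the measured pair were -0.86 and -0.51, so both kept their direction but neither reached 2-fold.

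Fbln5, whose protein is required for elastic fibre assembly in mice, had the lowest ratio of the 7 members above the floor on both arrays. Its usable probe set read 148 on the Venus-positive array and 502 on the Venus-negative array, 3.40-fold lower, and 2.70-fold lower relative to the median gene. Of the genes above the floor on both arrays, 2.40% had a lower ratio. The second Fbln5 probe set, at 6.22 in Venus-positive against 5.44 in Venus-negative cells, was below the floor on both.

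For members above the floor on both arrays, multiplying all signals of 1 array by a constant leaves the differences between their ratios unchanged. Quantile normalization alters these differences. Among the 7 members above the floor on both arrays, the order of log2 ratios on the deposited scale was Fbln2, Fbn2, Eln, Mfap2, Mfap4, Fbln1 and Fbln5, and Fbln2 and Fbln5 stood 2.48 apart. The only available yardstick is the pooled standard deviation of 0.34 between log2 ratios of probe sets of 1 gene, over 5445 genes with several measured probe sets. It holds no error between samples. Fbln2 stood above its neighbour Fbn2 by 0.97 and Fbln5 stood below its neighbour Fbln1 by 0.57. The 4 gaps between neighbours from Fbn2 down to Fbln1 were 0.16 to 0.33, each smaller than that spread. The order of neighbours within this middle group is thus not settled. Its ends, Fbn2 at -0.26 and Fbln1 at -1.19, lie farther apart than that spread.

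**Figure D2:**
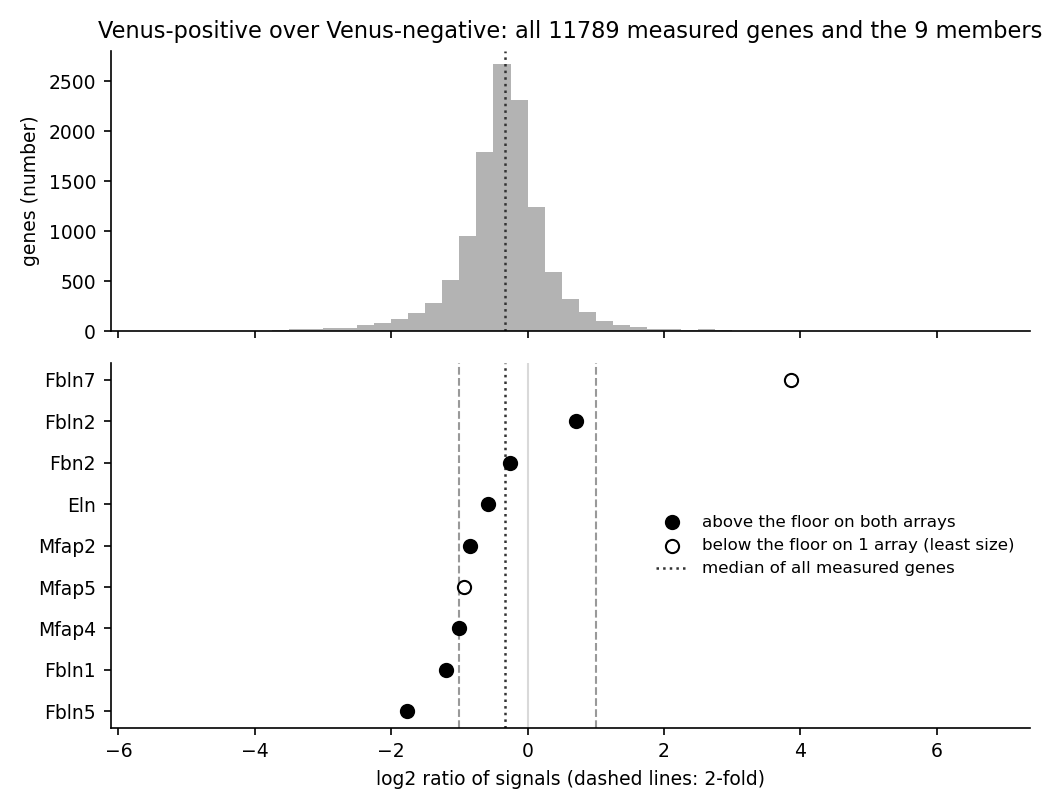
Upper panel: number of genes by log2 ratio (Venus-positive divided by Venus-negative signal) for all 11789 measured genes. Lower panel: the log2 ratio of each of the 9 measured members, filled where both arrays were above the floor and open where the value is the least size, with dashed lines at 2-fold and a dotted line at the median of all measured genes, -0.33. Fbln7 lies outside the bulk of the genes on the right, and Fbln5, at -1.76, lies farthest left among the filled points.

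The start regions of the 4 fibulin genes are shown because these genes had ratios in opposite directions. Each is a RefSeq window of 300 bases (assembly GRCm38.p6), with 250 bases before an annotated transcription start and 50 after it, and for Fbln1 and Fbln5, which have 2 windows, the more upstream one is given. Capitals mark motifs searched on both strands. They are the GC box (spelled GGGCGG), the TATA box (spelled TATAAA), 2 motifs of SOX transcription factors (the longer spelled ACAAAG, the shorter spelled ACAAT) and the SMAD motif of TGF-beta signalling (spelled CAGAC).
Fbln7 (chr2:128863682-128863981, plus strand): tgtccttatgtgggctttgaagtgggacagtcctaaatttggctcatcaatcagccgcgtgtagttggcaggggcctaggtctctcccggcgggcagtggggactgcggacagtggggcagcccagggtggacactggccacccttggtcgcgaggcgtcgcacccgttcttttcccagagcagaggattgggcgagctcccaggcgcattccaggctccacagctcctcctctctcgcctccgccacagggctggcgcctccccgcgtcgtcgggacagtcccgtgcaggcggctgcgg
Fbln2 (chr6:91212514-91212813, plus strand): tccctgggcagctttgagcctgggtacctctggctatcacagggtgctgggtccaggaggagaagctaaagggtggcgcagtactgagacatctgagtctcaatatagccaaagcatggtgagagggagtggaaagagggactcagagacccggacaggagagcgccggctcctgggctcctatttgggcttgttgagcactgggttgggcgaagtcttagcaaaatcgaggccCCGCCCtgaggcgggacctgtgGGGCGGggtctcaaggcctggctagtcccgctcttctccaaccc
Fbln1 (chr15:85205699-85205998, plus strand): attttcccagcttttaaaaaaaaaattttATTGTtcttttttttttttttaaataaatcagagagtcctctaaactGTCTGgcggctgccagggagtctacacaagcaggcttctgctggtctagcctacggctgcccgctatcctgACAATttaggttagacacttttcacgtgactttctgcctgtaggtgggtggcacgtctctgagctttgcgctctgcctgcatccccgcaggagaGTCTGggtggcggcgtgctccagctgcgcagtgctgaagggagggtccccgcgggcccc
Fbln5 (chr12:101819070-101819369, minus strand): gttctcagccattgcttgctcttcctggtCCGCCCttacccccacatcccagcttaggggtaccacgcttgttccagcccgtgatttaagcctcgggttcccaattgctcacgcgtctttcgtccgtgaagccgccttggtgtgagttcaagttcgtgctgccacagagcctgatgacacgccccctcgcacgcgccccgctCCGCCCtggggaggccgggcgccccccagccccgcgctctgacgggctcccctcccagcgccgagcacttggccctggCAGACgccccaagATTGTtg
The Fbln7 window holds none of these motifs. The Fbln2 window holds the GC box at 2 places. The Fbln1 window holds the shorter SOX motif and the SMAD motif at 2 places each. Its second window, not shown, overlaps the first and holds the GC box at 2 places, the shorter SOX motif at 1 and the SMAD motif at 2, with a GC content of 64.0%. The Fbln5 window holds the GC box at 2 places and the shorter SOX motif and the SMAD motif at 1 each, and its second window, not shown, holds only the SMAD motif, at 2 places, with a GC content of 48.7%. The contents of a gene's start region thus depend on which window is taken. No 2 of the matches in the windows shown overlap. Of 32851 RefSeq windows, 35.7% hold the GC box, 13.6% the TATA box, 18.7% the longer and 31.0% the shorter SOX motif and 49.6% the SMAD motif, so matches of this kind are frequent. In the windows shown, GC content was 66.0% for Fbln7, 60.3% for Fbln2, 51.7% for Fbln1 and 65.7% for Fbln5, beside a median of 52.7% over all windows. Windows were analysed for 6 of the 10 listed genes, and a match is a stretch of letters, not a measured binding site.

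Most markers of connective tissue cells outside cartilage were lower in Venus-positive cells alongside Fbln5, Fbln1, Mfap4, Mfap2, Mfap5 and Eln. Of 15 fibroblast and perichondrium markers, 10 were at least 2-fold lower and none was higher, with a median log2 ratio of -1.43 and signals that summed to 18983 on the Venus-positive array and 36323 on the Venus-negative array. Decorin (Dcn), a small proteoglycan of fibrous tissue, had 156 in Venus-positive against 2483 in Venus-negative cells, whereas the brightest probe set of the collagen gene Col1a2 had 5845 in Venus-positive against 7892 in Venus-negative cells. Its 3 probe sets spanned log2 ratios of -1.91 to -0.43. Of 9 smooth muscle and pericyte markers, 7 were at least 2-fold lower, with summed signals of 490 in Venus-positive against 3128 in Venus-negative cells. Of 5 tendon markers 4 were lower, 3 of them at least 2-fold, while Fmod (fibromodulin) was 2.02-fold higher. Fmod was read from an _x_at probe set, and its 6 probe sets spanned log2 ratios of 0.50 to 1.51. The summed signals of the tendon markers were 1247 in Venus-positive against 2058 in Venus-negative cells. Over all measured genes, 11.6% were at least 2-fold lower. Of the markers in these 3 lists, 8 were below the floor in Venus-positive cells and so could only come out lower. Lower signals were not particular to connective tissue. Median log2 ratios were -2.29 for 7 endothelial, -2.29 for 8 epithelial, -3.10 for 6 leukocyte and -3.79 for 5 skeletal muscle markers. Of these, 3, 3, 3 and 2 were below the floor in Venus-positive cells. The part of any of these cell types in the differences of the members was not tested.

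The proteins that work with microfibrils and elastin were followed in 10 lists of 54 genes in all, of which 42 were measured. Across them 3 genes passed 2-fold upward and 10 downward, 7.14% and 23.8%, beside the 2.79% and 11.6% of all measured genes given above. Their median log2 ratio was -0.22, and 0.11 relative to the median gene. Relative to that gene 3 passed 2-fold upward and 8 downward, beside 5.06% and 6.45% of all measured genes on that scale. After scaling to the spike controls 4 of 41 measured partner genes were higher and 8 lower. The share of all genes on the spike scale was not computed. On the deposited scale, Loxl4 among the higher and Mmrn1, Mmrn2 and Adamtsl2 among the lower genes passed the dim-signal filter through 1 array only. These genes could thus come out only on that side.

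Both other fibulins that were measured were lower, as were Fbln1 and Fbln5. Of the 2 other fibulins, 1 was at least 2-fold lower, beside 11.6% of all measured genes, and their median log2 ratio was -1.37. Efemp1, which encodes fibulin 3, read 140 on the Venus-positive array and 545 on the Venus-negative array, 3.90-fold lower. Hmcn1 (hemicentin 1, also called fibulin 6) had 288 in Venus-positive against 494 in Venus-negative cells, a log2 ratio of -0.78. Efemp2, the gene of fibulin 4, was not analysed here.

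The latent TGF-beta binding proteins resemble fibrillins and tether TGF-beta to the matrix. By their brightest probe sets none of the 4 genes was shown to pass 2-fold, and the median log2 ratio was 0.07. Ltbp1 read 717 on the Venus-positive array and 1158 on the Venus-negative array, and Ltbp3 had 1597 in Venus-positive against 1245 in Venus-negative cells. The second measured probe set of Ltbp1 gave a log2 ratio of -1.05, past 2-fold, and the 4 probe sets of Ltbp3 spanned log2 ratios of -0.15 to 0.77. Ltbp4 had 62.7 in Venus-positive against 73.1 in Venus-negative cells, and Ltbp2 had 29.0 in Venus-positive against 19.2 in Venus-negative cells, the second of these below the floor, so that its ratio is a least size. The 4 processing and growth factor genes had a median of -0.15, and none was shown to pass 2-fold. They included the TGF-beta genes, with Tgfb2 at 864 in Venus-positive against 1002 in Venus-negative cells, Tgfb3 at 182 in Venus-positive against 247 in Venus-negative cells, and Tgfb1 at 10.4 in Venus-positive against 23.9 in Venus-negative cells. As 10.4 is below the floor, the size of the Tgfb1 difference is only bounded from below. Furin, a protease that processes fibrillin and TGF-beta precursors, had 193 in Venus-positive against 147 in Venus-negative cells.

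Among the lysyl oxidases, copper enzymes that cross-link elastin and collagen, ratios lay on both sides of 2-fold, with 2 of 4 measured genes at least 2-fold higher, 1 at least 2-fold lower and a median log2 ratio of 0.24. Loxl3 read 638 on the Venus-positive array and 141 on the Venus-negative array, 4.51-fold higher, and Loxl4, below the floor on the Venus-negative array, was at least 2.39-fold higher (53.7 in Venus-positive against 3.51 in Venus-negative cells). Lox was 3.37-fold lower, at 343 in Venus-positive against 1155 in Venus-negative cells, with its second measured probe set at a log2 ratio of -1.55. Loxl1, whose protein works with fibulin 5 on elastic fibres in mice, had 265 in Venus-positive against 452 in Venus-negative cells, a log2 ratio of -0.77.

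Emilins and multimerins, which share the EMI domain, also differed among themselves, with 3 of 5 at least 2-fold lower, none 2-fold higher and a median log2 ratio of -1.30. Emilin1 read 603 on the Venus-positive array and 384 on the Venus-negative array, 1.57-fold higher, with a second probe set at a log2 ratio of 0.11. Emilin2 had 62.4 in Venus-positive against 222 in Venus-negative cells, 3.56-fold lower. Mmrn2 and Mmrn1 were below the floor in Venus-positive cells and at least 4.14-fold and 2.46-fold lower, and the 4 probe sets of Mmrn2 spanned -2.05 to -0.19. Mmrn2 is an endothelial matrix gene, and all 7 measured endothelial markers were at least 2-fold lower, with summed signals of 146 in Venus-positive against 828 in Venus-negative cells. Over all measured genes, 11.6% were at least 2-fold lower. Of these endothelial markers, 3 were below the floor in Venus-positive cells and so could only come out lower. The part of the endothelial markers in the difference of Mmrn2 was not tested.

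Of 6 measured ADAMTS and ADAMTS-like genes, whose proteins bind or modify microfibrils, 1 was at least 2-fold lower and none was at least 2-fold higher, with a median log2 ratio of -0.39. Adamtsl2 was at least 3.53-fold lower (17.99 in Venus-positive against 79.3 in Venus-negative cells). Adamtsl1 read 111 on the Venus-positive array and 210 on the Venus-negative array, a log2 ratio of -0.92. Its 3 probe sets spanned log2 ratios of -1.30 to -0.92, on either side of 2-fold. Adamts6 had 76.2 in Venus-positive against 128 in Venus-negative cells, while Thsd4, also named ADAMTS-like 6, had 237 in Venus-positive against 176 in Venus-negative cells. Both measured genes that share only the microfibril-associated name, Mfap3 and Mfap3l, were within 2-fold, at log2 ratios of -0.29 and -0.39.

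The 4 matrix partners had a median log2 ratio of 0.22. By its brightest probe set 1 of them passed 2-fold upward, beside 2.79% of all measured genes. Hspg2 (perlecan, a basement membrane and cartilage proteoglycan that binds fibrillin) read 387 on the Venus-positive array and 116 on the Venus-negative array. It was 3.34-fold higher by this _s_at probe set, with its other probe set at a log2 ratio of 0.79. Without _x_at and _s_at probe sets Hspg2 did not pass 2-fold, and 2 partner genes in place of 3 were at least 2-fold higher. Fibronectin (Fn1) had 2051 in Venus-positive against 3148 in Venus-negative cells, Vcan (versican) had 2535 in Venus-positive against 2496 in Venus-negative cells, and Bgn (biglycan) had 942 in Venus-positive against 703 in Venus-negative cells, all within 2-fold. Of 6 measured integrin genes, with a median of -0.23, 2 were at least 2-fold lower, beside 11.6% of all measured genes. Itga8 had 146 in Venus-positive against 443 in Venus-negative cells, with its other probe set within 2-fold at a log2 ratio of -0.98. Itgb8 had 80.8 in Venus-positive against 195 in Venus-negative cells. Itga5 and Itgav had log2 ratios of -0.32 and -0.14. Relative to the median gene Itga8 alone of these 6 was 2-fold lower.

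Of 5 measured proteases able to degrade elastin, 2 were at least 2-fold lower, beside 11.6% of all measured genes, and the median log2 ratio was -0.20. Ctss (cathepsin S, abundant in macrophages) read 47.6 on the Venus-positive array and 395 on the Venus-negative array, 8.30-fold lower. All 6 leukocyte markers were also at least 2-fold lower, beside 11.6% of all measured genes. Their summed signals were 138 in Venus-positive against 1645 in Venus-negative cells. Of these markers, 3 were below the floor in Venus-positive cells and so could only come out lower. The part of the leukocyte markers in the Ctss difference was not tested. Ctsk (cathepsin K) had 89.1 in Venus-positive against 232 in Venus-negative cells, a log2 ratio of -1.38. Ctsl and Mmp9 were within 2-fold, at -0.20 and -0.12 by their brightest probe sets and at -0.77 and 0.38 by their other ones.

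**Figure D3:**
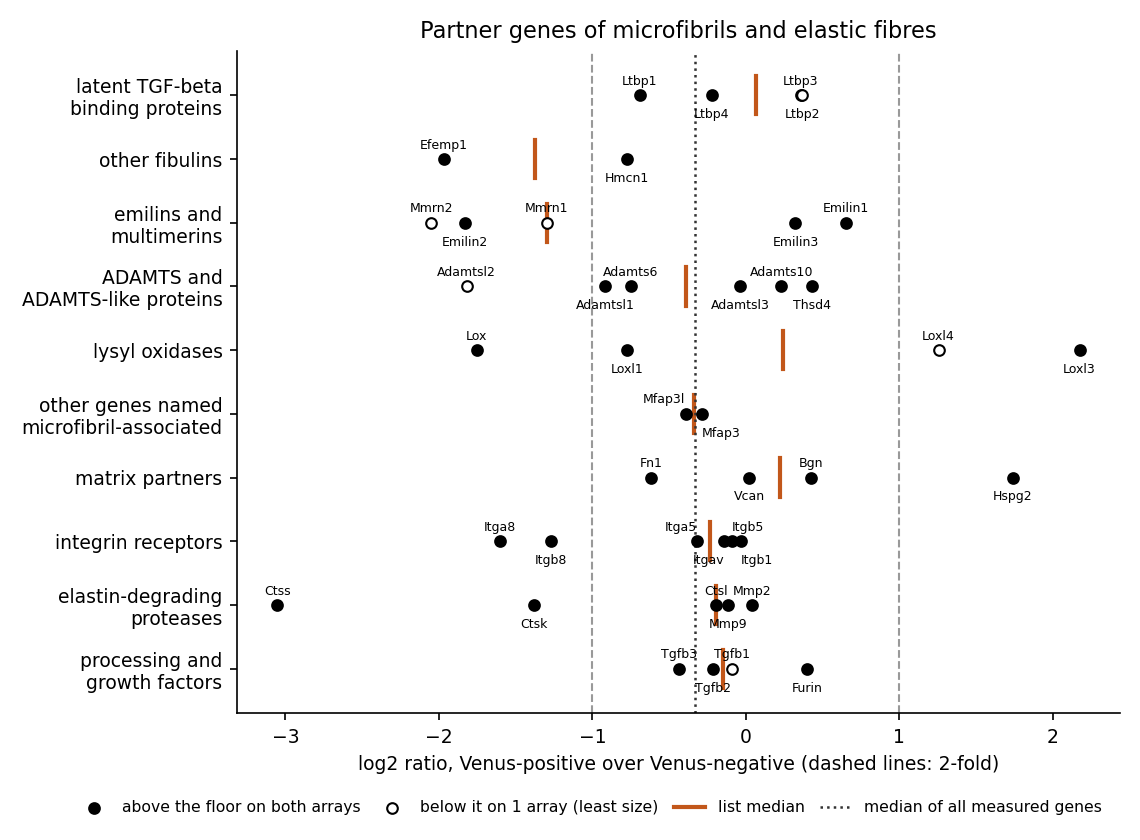
Log2 ratio (Venus-positive divided by Venus-negative signal) for the 42 measured partner genes, by list (rows). Filled points were above the floor on both arrays, open points give the least size, orange bars are list medians, the dotted line is the median of all measured genes and dashed lines mark 2-fold. Loxl3, Hspg2 and Loxl4 lie to the right of the 2-fold line, and the lowest gene is Ctss at -3.05.

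Among the members, the 2-fold calls of Fbln7 and Fbln5 held under all 9 settings tried. Fbln7 gave log2 ratios of 1.52 to 4.61 and Fbln5 of -1.76 to -1.38 over these settings of scale, floor and probe sets, with Fbln7 a least size in all but those with a lower floor or none. Fbln2 (0.70 to 1.10), Mfap2 (-1.11 to -0.47), Fbln1 (-1.19 to -0.81) and Mfap4 (-1.01 to -0.63) kept their direction but not their side of the 2-fold line. The same held for Mfap5, at -2.19 to -0.59 over the 8 settings in which it was measured. Eln, at -0.59 to -0.21, stayed lower and within 2-fold. Fbn2, at -0.26 to 0.13, was the only measured member whose sign changed.

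**Figure D4:**
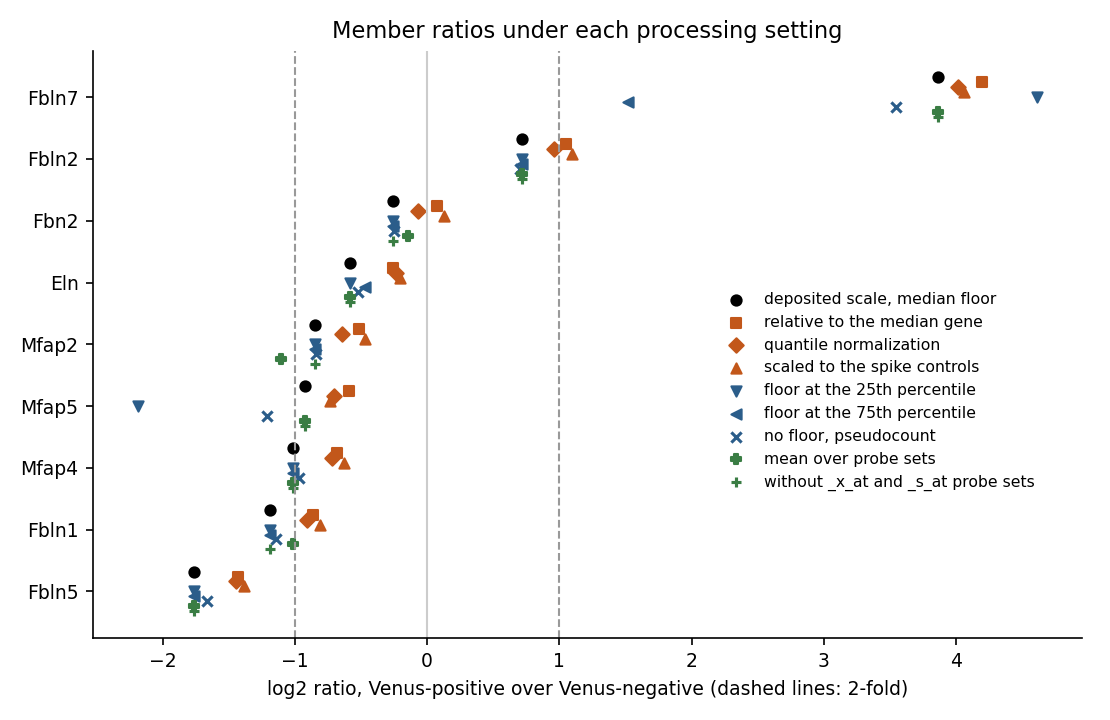
Log2 ratio (Venus-positive divided by Venus-negative signal) for each measured member (rows) under 9 settings, with black for the deposited scale, orange for other scales, blue for other floors and green for other uses of the probe sets. The 2-fold lines are dashed. Every point of Fbln7 lies right of 1 and every point of Fbln5 left of -1, and only Fbn2 has points on both sides of 0.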

How the data were processed

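Venus-positive and Venus-negative cells were each measured on 1 array, from 100 ng of total RNA per the labels' protocols. The deposited values are linear intensities per probe set, which the authors made with MAS5, per the submitters' processing notes. The sources used here do not state its version, scaling target or detection calls. Gene names came from the platform annotation, and all member identifiers matched RefSeq (GRCm38.p6). The 64 control probe sets were set aside. Floor, log2 ratios, counts past 2-fold and motif matches were computed in Python 3.11.15 with pandas 2.3.3 and numpy 2.4.6. The procedure was tested on simulated data with known changes, placed only in genes well above the floor on the Venus-negative array. That test did not cover genes near or below the floor, such as Fbln7 and Mfap5. All 10 members were named, with Efemp1, Efemp2, the latent TGF-beta binding protein genes and the 4 measured genes of each partner list with the largest absolute ratio. Col1a2, Dcn and Fmod were named as markers after their values were seen. Members and lists were chosen with earlier results of these data known. The number of arrays limits the precision. Alternatives were the relative scale, quantile normalization, scaling to 45 spike-control probe sets, floors at the 25th and 75th percentiles, log2(signal + 16) without a floor, the mean over probe sets, and leaving out _x_at and _s_at probe sets.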

Additional observations from a re-analysis of the deposited data

How the results depend on the processing

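Counts past 2-fold depended mainly on the scale. At least 2-fold lower were 1 member gene relative to the median gene, 1 after quantile normalization and 1 after scaling to the spike controls, in place of 3, and at least 2-fold higher were 2 relative to the median gene and 2 with the spike controls, in place of 1. Of member probe sets, 2, 1 and 1 were lower on these 3 scales in place of 4, and 2 were higher relative to the median gene and 2 with the spike controls in place of 1. With the spike controls the median log2 ratio was -0.47 in place of -0.85 for the members and 0.16 in place of -0.22 for the partner genes. These 3 scales brighten the Venus-positive array by construction. With the floor at the 75th percentile 5 partner genes were lower in place of 10. Fewer genes were measured (31 rather than 42), and a higher floor also shrinks the ratios of genes whose dimmer signal lies below it. Fbln7 moved to 4.61 and Mfap5 to -2.19 with the floor at the 25th percentile, which lies below their dim signals, and Fbln7 to 1.52 with the higher floor, where Mfap5 was not measured. The remaining 49 recomputed counts and medians moved by at most 1.5 times (counts) or by less than 0.34 (medians). With 1 array per fraction no replicate could be left out, and no paired analysis was possible because each fraction was measured once.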
